A study of Arabidopsis thaliana with 6 samples.

Results

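The 10 genes described here carry the salicylic acid signal in *Arabidopsis thaliana* from its receptors to its response: *NPR1*, *NPR3* and *NPR4*, *NIMIN1*, *NIMIN2* and *NIMIN3*, *PR1*, *PR2* and *PR5*, and *ACD6*. They were chosen by name, with earlier results of these data known. They are 10 of the 37184 gene identifiers in the count files, and all 10 had counts. RNA-seq was performed on 14-day-old seedlings of 2 genotypes, wild type (WT, Col-0) and *nol12-4*, with 3 libraries of each, 1 per biological replicate. *nol12-4* is a single T-DNA insertion line in the Col-0 background, in the gene of AtNOL12, a nucleolar protein related to the yeast exoribonuclease Rrp17. No seedling was treated with salicylic acid or a pathogen, so the values are levels of unchallenged plants grown on plates, and the rescued line of the study has no library here.

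Salicylic acid is the plant hormone of defence against pathogens that feed on living tissue. *NPR1* encodes a receptor of the hormone and the main coactivator of its response, and works through TGA transcription factors, which bind TGACG motifs. *NPR3* and *NPR4* encode related receptors that act as corepressors, and the NIMIN proteins bind NPR1 and dampen its activity. The PR genes encode secreted antimicrobial proteins and serve as markers of the response, and *ACD6* encodes a membrane protein with ankyrin repeats that promotes salicylic acid-dependent defence.

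The promoters of *NIMIN1*, *NIMIN2* and *ACD6* are shown because these genes had the lowest estimates. Each sequence holds the 300 bases before the start of the gene in RefSeq (TAIR10.1), 5′ to 3′ on the strand of the gene. Capitals mark the TGA motif TGACG and the W-box, the motif of WRKY factors, written as TTGACC or TTGACT, on either strand.
NIMIN1, chr1:498540-498839, minus strand: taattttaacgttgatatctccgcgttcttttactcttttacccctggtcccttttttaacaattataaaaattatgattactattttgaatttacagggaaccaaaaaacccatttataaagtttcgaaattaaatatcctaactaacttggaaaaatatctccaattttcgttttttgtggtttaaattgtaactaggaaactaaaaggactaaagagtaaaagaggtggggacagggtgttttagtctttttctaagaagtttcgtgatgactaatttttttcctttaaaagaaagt
NIMIN2, chr3:9471040-9471339, minus strand: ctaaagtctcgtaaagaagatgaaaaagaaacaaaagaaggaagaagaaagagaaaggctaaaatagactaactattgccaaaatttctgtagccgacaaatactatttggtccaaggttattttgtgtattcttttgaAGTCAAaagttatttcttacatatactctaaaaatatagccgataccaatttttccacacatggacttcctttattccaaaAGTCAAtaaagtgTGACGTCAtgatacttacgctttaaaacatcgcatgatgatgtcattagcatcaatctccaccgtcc
ACD6, chr4:8293865-8294164, plus strand: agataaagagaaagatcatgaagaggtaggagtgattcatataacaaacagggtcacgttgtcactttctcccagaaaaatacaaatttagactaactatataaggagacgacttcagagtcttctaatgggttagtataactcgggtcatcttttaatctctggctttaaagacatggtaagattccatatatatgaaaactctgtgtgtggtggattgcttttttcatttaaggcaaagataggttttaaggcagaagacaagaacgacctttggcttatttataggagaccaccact
*NIMIN2* held TGACG 2 times, as a pair on opposite strands that overlap 67 and 64 bases before the start, and the W-box 2 times. *NIMIN1* and *ACD6* held neither motif in this window, which says only that these letters are not there. Of the 9 promoters of the 10 genes that were read, 4 held TGACG (*NPR3*, *NPR4*, *NIMIN2* and *PR2*), as did 21.3% of the 27443 promoters of protein-coding genes. The W-box was found in 3 of the 9 (*NPR3*, *NIMIN2* and *PR5*) and in 32.3% of all promoters. A motif match is a description of the sequence and not a binding site.

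The libraries held 67444306 to 75001252 counts on genes in WT and 56627497 to 74162060 in *nol12-4*, of which 47.0 to 56.6% fell on plastid and mitochondrial genes. A count of 0 allowed a level of up to 0.04 to 0.053 CPM. CPM here are counts scaled by the library total and its TMM factor, and values of single libraries follow the order of replicates 1, 2 and 3. *AtNOL12* (AT1G11240) itself had 663, 642 and 894 counts in WT, and 1186, 770 and 2142 in the libraries labelled *nol12-4*. A count over the whole gene does not part the 2 sides of an insertion, and does not check the labels. The clock genes set *nol12-4* replicates 1 and 2 apart from the other libraries: *LHY*, a morning gene, had 80, 83 and 71 counts in WT and 4314, 2896 and 75 in *nol12-4*. The time of harvest is not given in the sources used here, and whether it moved the genes described here was not tested. Estimates of the 10 genes are therefore also given for *nol12-4* replicate 3 alone against WT. In that comparison 1 library stands for the mutant, it is assumed to vary like WT, and the WT libraries supply all of the spread behind its p-values.

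Most of the salicylic acid genes had lower estimates in *nol12-4*, and none of those tested passed the edgeR test. The largest differences were in *NIMIN1*, *NIMIN2* and *ACD6*, whereas the receptor genes differed by less than 1 log2 unit and the PR genes by less than the spread between replicates. Of the 10 genes, 9 passed the filter on low counts and were tested with edgeR's quasi-likelihood test, and *NIMIN1* was not. Over the 9, the median log2 fold change (*nol12-4* minus WT) was −0.45, against −0.0091 over all 21705 genes tested. Of the 9 estimates, 7 lay below 0 and 2 above, and of those of all tested genes 11060 lay below and 10645 above. At an adjusted p under 0.05 (Benjamini-Hochberg), edgeR called 0 of the 9 lower, where it called 0.0691% of all tested genes lower, and 0 higher, where it called 0.226% higher. At an unadjusted p under 0.05, 3 of the 9 were lower, beside 7.91% of all tested genes, and 0 higher, beside 12.1%. DESeq2, the tool of the study, called 3 of the 10 lower (*NIMIN1*, *NIMIN2* and *ACD6*), beside 3.21% of all genes it tested, and 0 higher, beside 6.2%. The study had already listed these 3 genes as lower from the same libraries, so the calls repeat its fit. Because the 10 genes were chosen with earlier results known, their shares are not independent of these data. All 3 *nol12-4* libraries lay below all 3 WT libraries in 3 genes (*NPR1*, *NIMIN2* and *ACD6*), which was the case for 11.6% of all tested genes, and above them in 0, beside 14.5%. With 3 libraries against 3, an exact permutation test of a single gene cannot give a two-sided p below 0.1.

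**Figure D1:**
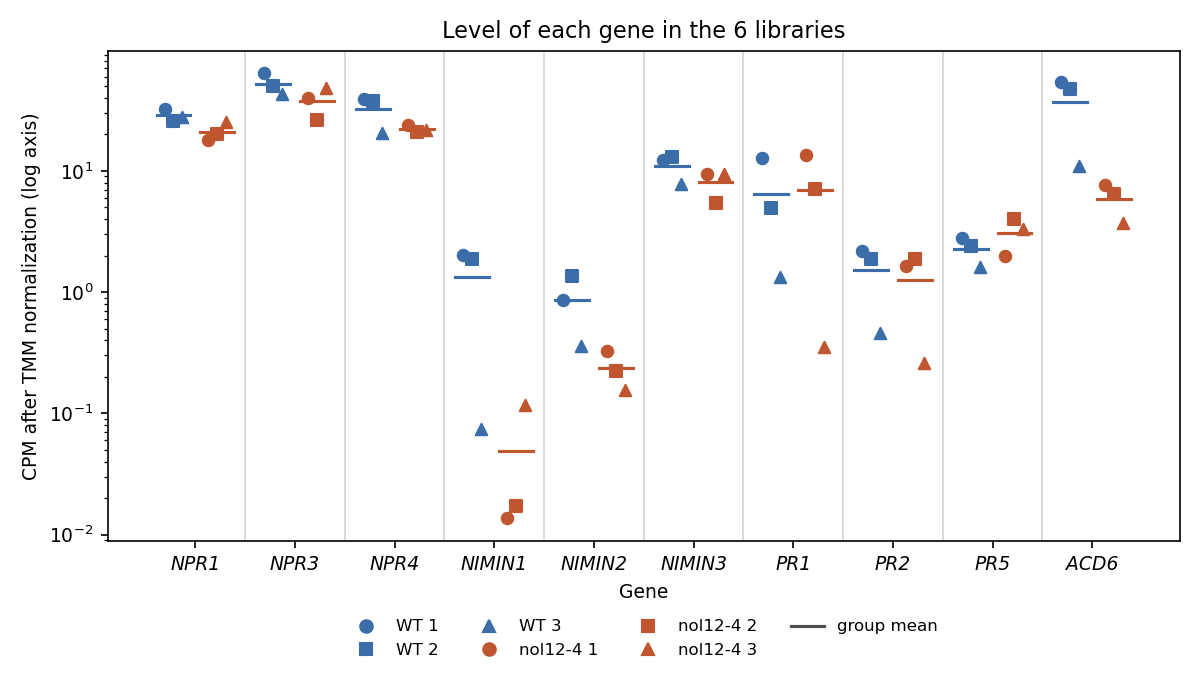
Level of each of the 10 genes in CPM after TMM normalization (log axis) in the 3 WT and 3 *nol12-4* libraries, with a point per library and a line at the mean of each genotype. WT replicate 3 (blue triangle) lies close to the *nol12-4* libraries in *NPR4*, *NIMIN1*, *NIMIN2* and *ACD6*, and replicate 3 of both genotypes is lowest in *PR1* and *PR2*.

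The receptor gene *NPR1* (AT1G64280, chromosome 1, 23852748 to 23855658, minus strand, 4 exons) had 2296, 1735 and 1879 counts in WT and 1316, 1175 and 1958 in *nol12-4*. After normalization these were 32.3, 26.0 and 28.0 CPM in WT and 17.9, 20.1 and 25.3 CPM in *nol12-4*. The genotypes did not overlap, but *nol12-4* replicate 3 came within 1 CPM of WT replicate 2. The mean was 28.8 ± 3.25 CPM in WT and 21.1 ± 3.82 in *nol12-4* (mean ± SD, n = 3 each, as in all such values below). On the log2 scale the difference was −0.45 (standard error 0.17, edgeR adjusted p = 0.212). DESeq2 gave an adjusted p of 0.171, and 0.0276 with *nol12-4* replicate 3 left out (log2 fold change −0.60).

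*NPR3* (AT5G45110, chromosome 5, 18228768 to 18231588, plus strand) had 64.2, 49.9 and 42.9 CPM in WT and 39.6, 26.4 and 47.9 in *nol12-4*. The genotypes overlapped, since *nol12-4* replicate 3 lay above WT replicate 3, and the log2 fold change was −0.46 (standard error 0.25, edgeR adjusted p = 0.350). *NPR4* (AT4G19660, chromosome 4, 10696266 to 10698811, minus strand) had 39.1, 38.1 and 20.4 CPM in WT and 24.0, 21.0 and 21.7 in *nol12-4*. Here WT replicate 3 was the lowest of the 6 libraries, and the 3 *nol12-4* libraries were close together. The log2 fold change of *NPR4* was −0.55 (standard error 0.25, edgeR adjusted p = 0.277), and without WT replicate 3 it was −0.79 and passed the test (adjusted p = 0.0399). In the comparison of *nol12-4* replicate 3 alone with WT, the estimates were −0.19 for *NPR1*, −0.13 for *NPR3* and −0.58 for *NPR4*, with edgeR adjusted p from 0.900 to 0.967.

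The NIMIN genes parted into a pair at low level and 1 gene at a high level. *NIMIN1* (AT1G02450, chromosome 1, 497917 to 498539, minus strand, 1 exon), which encodes a protein that binds NPR1 and represses its target genes, was read 144, 126 and 5 times in the WT libraries. In *nol12-4* it had 1, 1 and 9 counts, for which exact Poisson intervals (95%, counting error only) reach from 0.0253 to 5.57 for a count of 1 and from 4.12 to 17.1 for 9. The first 2 replicates differed widely between the genotypes, whereas WT replicate 3 (interval 1.62 to 11.7) lay below *nol12-4* replicate 3, within counting error of it. In CPM the gene went from 1.33 ± 1.09 in WT to 0.0490 ± 0.0584 in *nol12-4*. This level was too low for the edgeR filter, and without any filter edgeR estimated −4.65 on the log2 scale (standard error 1.27, adjusted p = 0.128), and DESeq2 gave −4.74 (standard error 1.11, adjusted p = 0.000886). DESeq2 called *NIMIN1* with each library left out in turn (adjusted p 1.84e-10 to 0.0439). Without a filter, edgeR called it only without WT replicate 3 (adjusted p = 0.00808). Against *nol12-4* replicate 3 alone the DESeq2 estimate was −3.52.

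*NIMIN2* (AT3G25882, chromosome 3, 9470357 to 9471039, minus strand, 1 exon), whose protein binds NPR1 as well, had 61, 90 and 24 counts in WT and 24, 13 and 12 in *nol12-4*. Scaled for depth, these were 0.859, 1.35 and 0.358 CPM in WT and 0.326, 0.222 and 0.155 in *nol12-4*, so the genotypes did not overlap, but the interval for 24 counts (15.4 to 35.7) covers both WT replicate 3 and *nol12-4* replicate 1. The log2 fold change was −1.86 (standard error 0.58, edgeR adjusted p = 0.148), and DESeq2 called it (−1.87, adjusted p = 0.0328). That call was lost in DESeq2 when any library but WT replicate 3 was left out (adjusted p 0.0632 to 0.275), and in *nol12-4* replicate 3 alone against WT (−2.47, adjusted p = 0.504).

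*NIMIN3* (AT1G09415, chromosome 1, 3037754 to 3038408, minus strand, 1 exon), the most abundant of the 3, had 12.3, 13.0 and 7.73 CPM in WT and 9.48, 5.45 and 9.49 in *nol12-4*. WT replicate 3 lay below 2 of the *nol12-4* libraries, and the log2 fold change was −0.43 (standard error 0.29, edgeR adjusted p = 0.433), and −0.22 for *nol12-4* replicate 3 alone. The count ratio of *NIMIN3* to *NIMIN2* was 14.3, 9.66 and 21.6 in WT and 29.1, 24.5 and 61.2 in *nol12-4*, above every WT library in each *nol12-4* library. It rests on 24 counts of *NIMIN2* in WT replicate 3 and on 24, 13 and 12 in *nol12-4*. The interval for 13 counts alone is 6.92 to 22.2, and the ratio was not tested.

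The 3 PR genes, which mark an active response, had no common direction. *PR1* (AT2G14610, chromosome 2, 6241640 to 6242541, minus strand), which encodes a small secreted protein, had 912, 333 and 89 counts in WT and 988, 413 and 27 in *nol12-4*. The libraries of 1 genotype differed far more than the genotypes did: the highest library held 9.68 times the CPM of the lowest in WT and 38.4 times in *nol12-4*. The mean was 6.39 ± 5.89 CPM in WT and 6.95 ± 6.54 in *nol12-4*. On the log2 scale they differed by 0.12 (standard error 1.12, edgeR adjusted p = 0.964). Its sign turned under several alternatives, such as leaving out WT replicate 3 (−0.36) or *nol12-4* replicate 1 (−0.79). In *nol12-4* replicate 3 alone against WT it was −4.19 with edgeR (adjusted p = 0.868) and −4.20 with DESeq2 (adjusted p = 0.00418). In that comparison DESeq2 put 2 of the 10 genes past the threshold, *PR1* and *ACD6*, beside 0.388% of all genes it tested lower, and edgeR put 0, so with a single mutant library these are not counted as differences between the genotypes.

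*PR2* (AT3G57260, chromosome 3, 21188397 to 21189967, minus strand), a secreted beta-glucanase gene, had 156, 126 and 31 counts in WT and 120, 109 and 20 in *nol12-4*. As for *PR1*, replicate 3 was the lowest of its genotype in both, with a ratio of highest to lowest CPM of 4.75 in WT and 7.20 in *nol12-4*. The log2 fold change was −0.28 (standard error 0.78, edgeR adjusted p = 0.866), and it was 0.20 without *nol12-4* replicate 3 and −2.54 for that library alone against WT (edgeR adjusted p = 0.868). *PR5* (AT1G75040, chromosome 1, 28177670 to 28179022, plus strand), a thaumatin-like protein gene, had 2.82, 2.40 and 1.63 CPM in WT and 1.97, 4.00 and 3.31 in *nol12-4*. *nol12-4* replicate 1 lay among the WT libraries and the other two above them, and the log2 difference was 0.44 (standard error 0.34, edgeR adjusted p = 0.499), and 0.54 for *nol12-4* replicate 3 alone. Unlike *PR1* and *PR2*, *PR5* was not lowest in *nol12-4* replicate 3. The labels do not say that the replicate numbers mark a shared day or batch.

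*ACD6* (AT4G14400, chromosome 4, 8294165 to 8299195, plus strand, 5 exons) had 3814, 3134 and 741 counts in WT and 560, 377 and 286 in *nol12-4*. Normalized, these were 53.7, 46.9 and 11.1 CPM in WT and 7.61, 6.44 and 3.70 in *nol12-4*, so that WT replicate 3 stood much nearer to *nol12-4* replicate 1 than to the other WT libraries. The mean was 37.2 ± 22.9 CPM in WT and 5.92 ± 2.01 in *nol12-4*, a ratio of 6.29. The log2 fold change was −2.65 (standard error 0.58) with an edgeR adjusted p of 0.0830, and DESeq2 called the gene (−2.66, adjusted p = 3.69e-05). Without WT replicate 3, edgeR called it as well (−3.09, adjusted p = 0.0125). DESeq2 called *ACD6* with each of the 6 libraries left out in turn (adjusted p 7.87e-18 to 0.00656). For *nol12-4* replicate 3 alone, with WT as the only source of spread, the DESeq2 estimate was −3.34 (adjusted p = 0.00127), and edgeR gave −3.33 (adjusted p = 0.868). Seedlings were read whole, so fewer cells that express a gene and less RNA per cell cannot be told apart for *ACD6* or for any gene here.

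**Figure D2:**
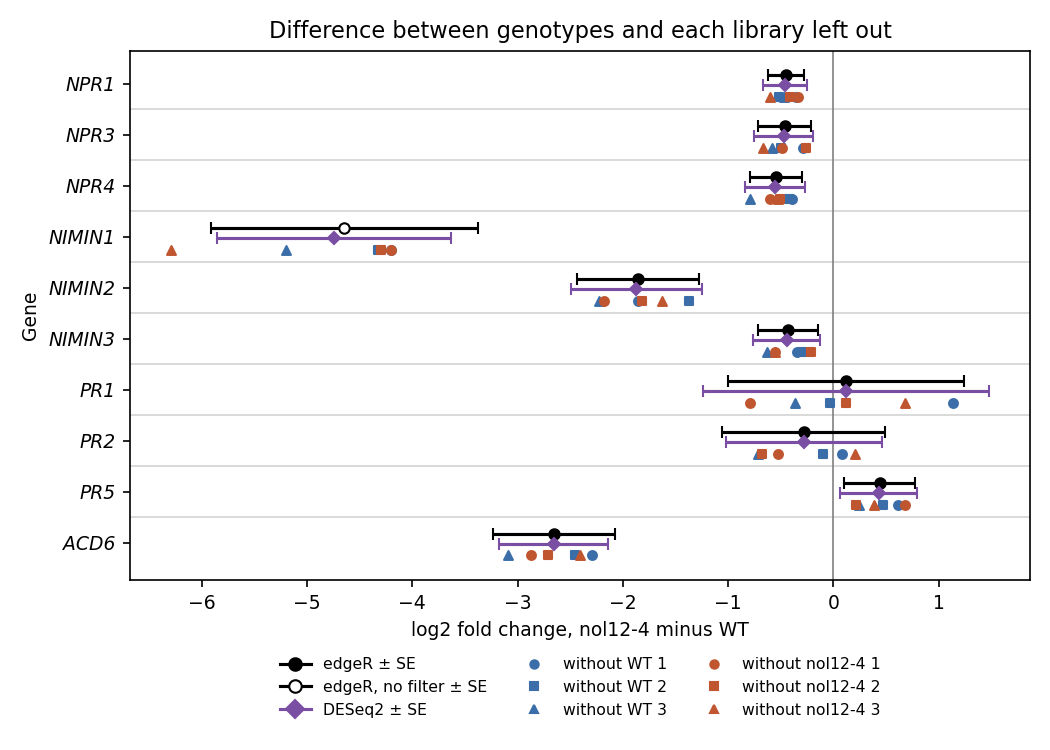
Log2 fold change (*nol12-4* minus WT) of the 10 genes with edgeR (black, bars are standard errors; open point for *NIMIN1*, which was fitted without a filter on low counts) and DESeq2 (purple), with the edgeR value for each library left out in turn below. *ACD6* stayed between −3.09 and −2.30 with any library left out, whereas *PR1* spanned −0.79 to 1.13.

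WT replicate 3 was the one library whose omission changed an edgeR call among these genes. The 10 genes summed to 222, 186 and 114 CPM in the WT libraries and to 116, 92.6 and 112 CPM in *nol12-4*, so this library held as little as the *nol12-4* libraries. Without it, edgeR called 3 genes lower (*NPR4*, *NIMIN1* and *ACD6*), where it called 1.28% of all tested genes, and 0 higher, beside 0.812%. DESeq2 then called 4 lower (*NPR4*, *NIMIN1*, *NIMIN2* and *ACD6*), beside 4.74%. With any one of the other libraries left out, edgeR called 0 of the 10 genes. Without WT replicate 1 or 2, or without *nol12-4* replicate 1 or 2, it called 0 of all tested genes. Those fits therefore say nothing about the 10 genes in particular. Without *nol12-4* replicate 3 it called 2.73% of all tested genes lower.

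Per kilobase of exon, the order of the mean levels in WT was *NPR3* at 19.7 ± 4.08 RPKM, *NIMIN3* at 16.8 ± 4.38, *NPR4* at 13.7 ± 4.43, *ACD6* at 11.5 ± 7.10 and *NPR1* at 11.0 ± 1.24. They were followed by *PR1* at 7.08 ± 6.53 RPKM, *NIMIN1* at 2.14 ± 1.75, *PR5* at 2.08 ± 0.552, *NIMIN2* at 1.25 ± 0.725 and *PR2* at 1.03 ± 0.627. Neighbours in this order differed by less than the larger of their SDs, except *PR5* and *NIMIN2*. In *nol12-4* the order began in the same way, with *NPR3* at 14.3 ± 4.09 RPKM, *NIMIN3* at 12.4 ± 3.56 and *NPR4* at 9.38 ± 0.661, but *ACD6* stood at 1.83 ± 0.622, below *PR5* at 2.83 ± 0.943. The lowest levels in *nol12-4* were 0.847 ± 0.587 RPKM for *PR2*, 0.343 ± 0.126 for *NIMIN2* and 0.0787 ± 0.0937 for *NIMIN1*. *NPR1* (8.07 ± 1.46) and *PR1* (7.70 ± 7.25) lay between *NPR4* and *PR5*, and in *nol12-4* no gene above *PR1* differed from it by more than its SD.

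Some of these genes have relatives of similar sequence, and whether any reads were assigned to the wrong gene was not tested. The longest match of *ACD6* elsewhere in the genome was 755 bases at 83.2% identity in AT4G14390, and its closest was 87 bases at 88.5% in the same gene, which had 47, 30 and 9 counts in WT and 34, 37 and 28 in *nol12-4*. *ACD6* also matched AT4G05040 over 750 bases at 80.7%. *PR1* matched AT2G14580 (*PRB1*) over 724 bases at 81.4%, *PR2* matched AT3G57240 (*BG3*) over 951 bases at 74.4%, *PR5* matched AT1G75030 over 788 bases at 77.5% and AT1G75050 over 686 bases at 78.6%, *NPR1* matched AT4G26120 over 660 bases at 75.2% and over 139 bases at 84.9%, and *NPR3* and *NPR4* matched each other over 759 bases at 77.6%. The NIMIN genes had no other match. No gene overlapped any of the 10 on the same strand, and *NPR1* overlapped 2 annotated genes on the other strand, which stranded counting keeps apart.

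The other genes of the pathway were read from lists of 53 genes, also chosen with earlier results known, of which 48 were tested with edgeR. Their median log2 fold change was −0.44, with 37 estimates below 0 and 11 above, beside 11060 below and 10645 above over all tested genes. edgeR called 0 of them in either direction (without adjustment 12 were lower and 1 higher, beside 7.91% and 12.1% of all tested genes), while DESeq2 called 7 of 52 lower and 0 higher, beside 3.21% and 6.2%. Their libraries did not overlap in 7 genes. Of these, 6 of 48 were lower in *nol12-4*, a share near the 11.6% of all tested genes, and 1 was higher, beside 14.5%. Without WT replicate 3, edgeR called 6 of the pathway genes lower, beside 1.28% of all tested genes. Without *nol12-4* replicate 3 it called 2, *TGA3* and *CBP60G*, beside 2.73%.

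The TGA factors, the DNA-binding partners of NPR1, had 7 estimates below 0 of 7, with a median of −0.43. *TGA3* had the lowest edgeR adjusted p of the pathway (0.0638), with 44.4 ± 4.32 CPM in WT and 25.3 ± 2.77 in *nol12-4* and an estimate of −0.81 (standard error 0.15), and DESeq2 called it (adjusted p = 0.000260), but not for *nol12-4* replicate 3 alone (−0.70, adjusted p = 0.577). Its 3 *nol12-4* libraries lay below all WT libraries. *TGA5*, at the other end of the list, had a log2 fold change of −0.11. The relatives of NPR1 had no common direction, with *NPR2* at −0.45 and *BOP2*, which acts in leaf and flower patterning, at 0.25. Of the partners and turnover factors of NPR1, *CUL3A*, a ubiquitin ligase scaffold gene, stood at −0.06 and *TRXH5*, the gene of a thioredoxin that reduces NPR1, at 0.29.

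The WRKY factors of the response had the lowest median of the lists, −1.52, with 7 of 7 estimates below 0, and DESeq2 called 2 of them lower. By library, the list median against the average of WT was 0.88, 0.5 and −1.27 in WT and −1.64, −2.01 and −0.67 in *nol12-4*. The list was thus lowest in *nol12-4* replicates 1 and 2, which the clock genes set apart, and *nol12-4* replicate 3 lay above WT replicate 3. *WRKY62* had 15, 31 and 13 counts in WT and 1, 5 and 0 in *nol12-4* (log2 fold change −3.19, edgeR adjusted p = 0.147, DESeq2 adjusted p = 0.0469), and *WRKY46* stood at −0.22. The DESeq2 call of *WRKY62* was lost when any library but *nol12-4* replicate 2 was left out (adjusted p 0.0722 to 0.331) and for *nol12-4* replicate 3 alone (adjusted p = 0.254). *WRKY54*, chosen after its values were seen, had 529, 386 and 116 counts in WT and 60, 60 and 93 in *nol12-4*, again with WT replicate 3 nearest to *nol12-4* (log2 fold change −2.30, edgeR adjusted p = 0.0870, DESeq2 adjusted p = 0.000264). Genes of salicylic acid synthesis and its inducers had a median of −0.61, with 8 of 9 estimates below 0 and 0 called by either tool. The lowest was −1.30 for *CBP60G*, a transcription factor gene that induces synthesis (−0.46 for *nol12-4* replicate 3 alone). The highest was 0.28 for *EDS5*, the gene of a plastid transporter of the synthesis pathway.

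Genes of salicylic acid turnover had a median of −0.44 over 4 tested of 6, from *DMR6*, a hydroxylase gene, at −0.99 to *UGT74F1*, a glucosyltransferase gene, at 0.15. DESeq2 called 1 of the 6 lower, the hydroxylase gene *DLO1*, which had 117, 10 and 6 counts in WT and 5, 6 and 4 in *nol12-4*, so WT replicate 1 alone stood above the rest. Of 8 other genes induced by salicylic acid, DESeq2 called 3 lower, *PNP-A*, *GSTF6* and *WAK1*, and the list median was −1.50. Without WT replicate 1 DESeq2 called none of *DLO1*, *PNP-A*, *GSTF6* and *WAK1*, and without WT replicate 2 it called *DLO1* alone among them. Without *nol12-4* replicate 2 it again called none of them, and without *nol12-4* replicate 3 *GSTF6* alone (DESeq2 adjusted p = 0.0492). All but *DLO1* were called without *nol12-4* replicate 1, and all of them without WT replicate 3. *PCC1* had 108, 56 and 3 counts in WT and 16, 9 and 9 in *nol12-4* (log2 fold change −2.29), and *SAG13*, a senescence marker, had the highest estimate, 0.84. Among the close relatives of the 10 genes, *PRB1*, next to *PR1* in sequence, had 117, 82 and 135 counts in WT and 172, 215 and 242 in *nol12-4* (0.90, edgeR adjusted p = 0.156), the opposite order to *NIMIN2* and *ACD6*. *BG3*, the relative of *PR2*, stood at −1.09.

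**Figure D3:**
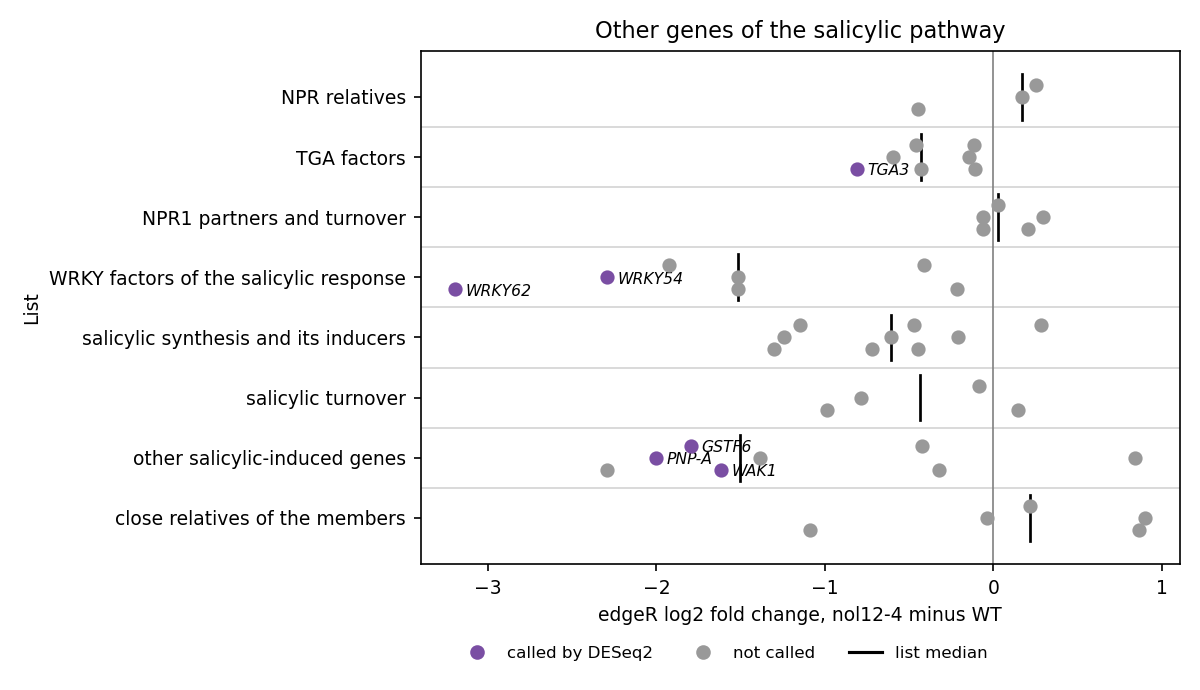
edgeR log2 fold change (*nol12-4* minus WT) of the 48 tested pathway genes by list, 1 point per gene, with a line at the median of each list and purple for genes that DESeq2 called. The medians lie lowest for WRKY factors (−1.52) and for other salicylic-induced genes (−1.50). They lie above 0 for the relatives of NPR1 and of the 10 genes, and just above it for the NPR1 partners and turnover factors (0.026).

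Marker genes of tissues and of another hormone had higher estimates in *nol12-4*, of which edgeR called 0. The median over 6 leaf markers was 0.56 and over 6 root markers 1.14 on the log2 scale, and all 6 root markers were above WT in every *nol12-4* library. The root markers summed to 649 to 898 CPM in WT and 1024 to 1104 CPM in *nol12-4*. Nearly all of this was *PYK10*, with 643 to 889 CPM in WT and 1007.5 to 1078 in *nol12-4*. Its log2 fold change, 0.46, was the lowest of the root markers. Both lists were expressed in every library, with leaf markers summing to 8355 to 11080 CPM in WT and 12320 to 18440 CPM in *nol12-4*. DESeq2 called 1 of the 6 leaf and 4 of the 6 root markers higher, beside 6.2% of all genes it tested. The genotypes overlapped in 3 of the 6 leaf markers, and all 3 *nol12-4* libraries were above WT in 14.5% of all tested genes. In *nol12-4* replicate 3 the medians against the average of WT were 0.46 for the leaf and 0.87 for the root markers. Jasmonate response genes, of a hormone pathway that salicylic acid signalling is known to oppose, had a median of 2.51, and 4 of 4 were above WT in every *nol12-4* library, with DESeq2 calling 3 of them. By library, the median of the 9 tested salicylic acid genes against the average of WT stood at 0.33, 0.28 and −0.61 in the WT libraries and at −0.38, −0.57 and −0.52 in *nol12-4*. The jasmonate genes stood at 0.05, 0.53 and −0.32 in WT and at 2.74, 2.37 and 1.63 in *nol12-4*, so WT replicate 3, low in the salicylic acid genes, was also lowest in the jasmonate genes. The contribution of tissue makeup, the jasmonate genes and the clock in the differences of the 10 genes was not tested.

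**Figure D4:**
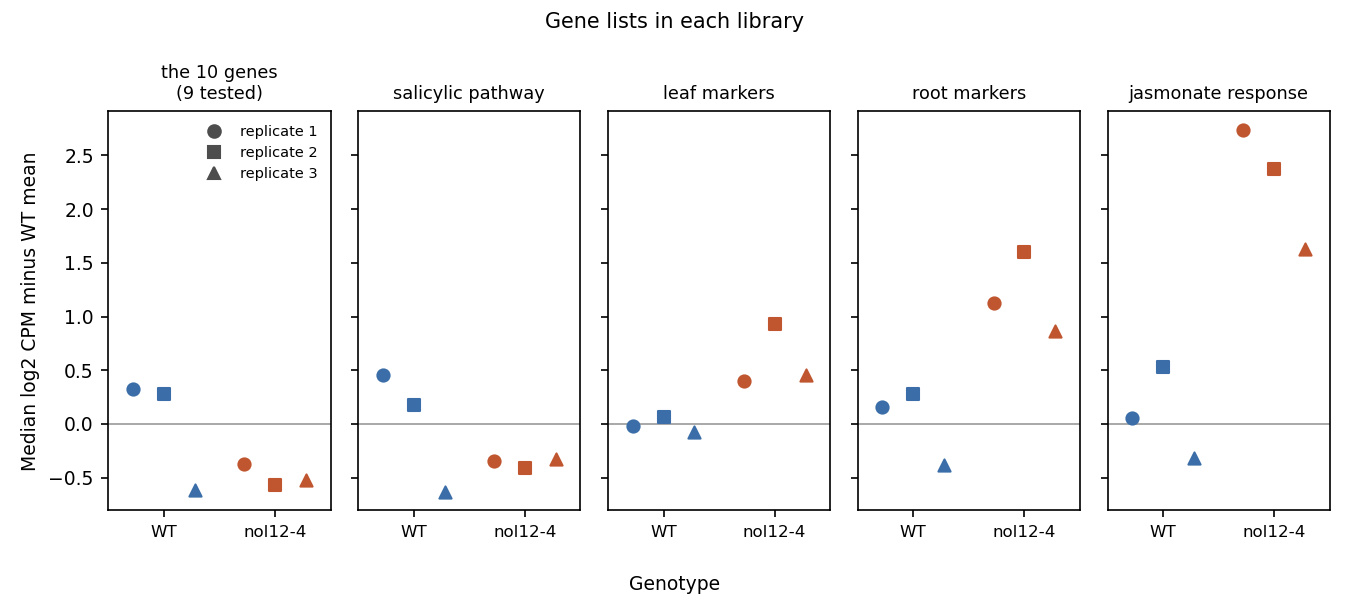
Median over the genes of a list of log2 CPM minus the WT mean (y axis), 1 point per library, for the 9 tested of the 10 genes, the salicylic pathway lists, leaf markers, root markers and jasmonate response genes in WT (blue) and *nol12-4* (orange). WT replicate 3 (−0.61) lies at the level of the *nol12-4* libraries (−0.57 to −0.38) in the 10 genes, but not in the marker lists.

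Genes with the most similar course over the 6 libraries were sought for the most abundant member of each class, as the smallest root mean square difference of centred log2 CPM. For *NPR3* these were AT1G63750, AT1G63740 and AT5G50130, with differences of 0.07 to 0.0832 where the median over all genes was 0.496. For *NIMIN3* they were AT4G39230, AT5G53940 and AT5G48640 (0.0746 to 0.0904, median of all genes 0.523). The genes nearest to *PR1* were *GDU6*, *DXPS1* and *SAG13* at 0.478, 0.487 and 0.664 (median of all genes 1.89). *DXPS1* had 1.34, 0.464 and 0.149 CPM in WT and 3.40, 1.40 and 0.0259 in *nol12-4*, the same order of libraries as *PR1* within each genotype. Nearest to *ACD6* were *RK1*, a receptor kinase gene, *MLO12*, a membrane protein gene of powdery mildew susceptibility, and AT3G46280, at 0.218, 0.226 and 0.254 (median of all genes 1.48). *MLO12* had 50.7, 47.2 and 9.68 CPM in WT and 8.00, 6.24 and 2.41 in *nol12-4*. These likenesses were chosen from all tested genes over 6 libraries, and describe the libraries alone.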

How the data were processed

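RNA-seq counts were read for 3 WT and 3 *nol12-4* libraries of 14-day-old seedlings. Per the methods of the study, rRNA was removed and stranded paired-end reads were aligned to TAIR10 with HISAT2 (version 2.0.4). The deposited values are raw counts, made by the authors with htseq-count (HTSeq version 0.6.0) for genes of Araport11. The summary lines of the counter, 20.6 to 25.0% of a library, were left out.

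The test was that of edgeR (version 4.0.16, under R 4.3.3), with TMM factors, filterByExpr, robust glmQLFit and the two-sided quasi-likelihood F test, with genotype as the only term and Benjamini-Hochberg adjustment at 0.05 over all genes. The standard error is the size of the log2 fold change divided by the square root of F, and log2 CPM used a prior count of 2. Also run were DESeq2 (1.42.0), limma-voom (3.58.1), edgeR without robust estimation, other scalings, other filters, organelle genes left out, a replicate block and each library left out. DESeq2 with the block or with libraries left out, *nol12-4* replicate 3 alone and the *NIMIN1* fits without a filter were added after seeing the data. The fits were tested on simulated data.

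The 10 genes and all lists were chosen with earlier results of these data known. Named by rule were the 10 genes, each pathway gene called by edgeR, the highest and lowest estimate of each list and the 3 genes most like 1 member per class. Also named, outside this rule, were *DLO1*, *PNP-A*, *GSTF6* and *WAK1*, which DESeq2 called, and *WRKY54* and AT4G01895. RefSeq TAIR10.1 held 36899 of 37184 identifiers; exon lengths, coordinates and promoters come from it, and matches elsewhere in the genome from blastn (version 2.17.0). The promoter of 1 of the 10 genes is not reported here. P-values set the difference between the genotypes against the spread between these libraries, and intervals cover counting error only.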

Additional observations from a re-analysis of the deposited data

How the results depend on the processing

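Of the estimates of the 10 genes, those of the 3 receptor genes, the 3 NIMIN genes, *PR5* and *ACD6* kept their direction under every alternative run. The calls over all genes moved widely as well. DESeq2 called 776 of 24147 genes lower, and 807 of 23138 with the block. With a library left out it called from 201 of 23409 (WT replicate 1) to 1574 of 23397 (*nol12-4* replicate 3). edgeR called 15 of 21705 lower, 284 of 22170 without WT replicate 3 and 601 of 22033 without *nol12-4* replicate 3. With any other library left out edgeR called 0. Genes of the 10 called lower (0 with edgeR) were 3 with DESeq2, 2 with DESeq2 and a replicate block, 2 with DESeq2 on *nol12-4* replicate 3 against WT, 0 to 3 with each library left out in edgeR with the filter (3 without WT replicate 3, where *NIMIN2* was called too without the filter, adjusted p = 0.0461) and 2 to 4 in DESeq2, and 0 were called higher under any setting. Pathway genes called lower (0 with edgeR) were 7 with DESeq2, 9 with DESeq2 and the block, 2 with DESeq2 on *nol12-4* replicate 3 against WT, 0 to 6 with each library left out in edgeR (6 without WT replicate 3, 2 without *nol12-4* replicate 3) and 2 to 19 in DESeq2 (2, 3 and 19 without a WT and 5, 3 and 8 without a *nol12-4* library), with 0 to 1 called higher.

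The sign of *PR1* turned with limma-voom (−0.56), the replicate block (−0.32; DESeq2 −0.38) and *nol12-4* replicate 3 against WT (−4.19; DESeq2 −4.20), and ran from −0.79 to 1.13 with each library left out in edgeR and −0.78 to 1.13 in DESeq2 (−0.036 and −0.36 without WT replicates 2 and 3). That of *PR2* ran from −0.72 to 0.20 in edgeR and −0.71 to 0.21 in DESeq2 (0.084 without WT replicate 1). Among pathway genes, *CUL3A* was 0.036 with library size alone, *WRKY46* 0.075 with limma-voom, and for *nol12-4* replicate 3 against WT *WRKY46* was 0.31 (DESeq2 0.31), *UGT74F1* −0.14 (DESeq2 −0.15) and *SAG13* −2.31 (DESeq2 −2.33). With each library left out, edgeR gave −0.052 to 0.55 for *TRXH5*, −0.67 to 0.16 for *WRKY46* and −0.084 to 0.27 for *UGT74F1*, and DESeq2 −0.054 to 0.54 (−0.022 without *nol12-4* replicate 1), −0.68 to 0.15 (0.012 without *nol12-4* replicate 2) and −0.098 to 0.27. The cause of these changes was not tested.

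Same-numbered libraries of the 2 genotypes did not deviate together over 21705 genes (correlations 0.16, −0.11 and 0.03). A correlation over all genes cannot show whether the numbers mark a shared batch for single genes. Replicate 3 was lowest in both genotypes in *PR1*, *PR2*, *NIMIN2* and *ACD6*, and not in the others of the 10. The block lowered the edgeR standard error of *PR1* (1.12 to 0.48), *PR2* (0.78 to 0.31) and *ACD6* (0.58 to 0.31). It raised that of *NPR1*, *NIMIN3* and *PR5* (0.34 to 0.37). With the replicate number as a block, edgeR called 1 gene higher and 0 lower in all and 0 of the 10 (*ACD6* −2.43, adjusted p = 0.0725), and the block changed no edgeR call of the 10 or of the pathway genes. Library size alone moved the median of all tested genes from −0.0091 to 0.0922. *NIMIN1* did not pass the filter in edgeR without WT replicate 1 or 2, nor with the block. Depth limits *NIMIN1* and *NIMIN2*, with 1 to 24 counts in the low libraries.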

Other observations

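The ratio of *ACD6* to *PR1* counts within a library was 4.18, 9.41 and 8.33 in the WT libraries (replicates 1 to 3) and 0.567, 0.913 and 10.6 in *nol12-4*. In *nol12-4* replicates 1 and 2 *ACD6* was low while *PR1* was at the level of WT replicates 1 and 2, and in *nol12-4* replicate 3 both were low. The ratio of *NIMIN1* to *PR1* was 0.158, 0.378 and 0.0562 in WT and 0.00101, 0.00242 and 0.333 in *nol12-4*, resting on 1, 1 and 9 counts of *NIMIN1*. The ratio of *PR1* to *PR5* was 4.56, 2.08 and 0.817 in WT and 6.81, 1.76 and 0.105 in *nol12-4*. AT4G01895, a relative of *NIMIN1*, had 46, 50 and 10 counts in WT and 63, 19 and 126 in *nol12-4*, an order of libraries unlike that of *NIMIN1*. These ratios were chosen after seeing the data and were not tested.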
